A study of Homo sapiens with 4 samples.

Results

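The genes described here encode factors that start and extend protein chains on the ribosome. They are EEF1A1, EEF2, TPT1, EEF1G, EEF1B2, EEF1D, EIF4A1, EIF4A2, EIF4G1 and EIF4G2, 10 of 19821 protein-coding genes on the autosomes and X. They were chosen by name with the SMARCB1 peaks of these data already known, so their peak counts, numbers and lengths are descriptions and carry no test. ChIP-seq was done in SK-Hep1, a human hepatic adenocarcinoma cell line grown as a culture under puromycin selection for a stably expressed shRNA. The H3K27ac libraries came from cells with an shRNA against SMARCB1 (shSMARCB1, the knockdown) and from cells with a control shRNA (shCon). For the third library, precipitated with an antibody to SMARCB1, the shRNA is not stated. Each group had 1 library, so no value has a replicate check, and a difference between shSMARCB1 and shCon is a difference between these 2 libraries.

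H3K27ac, the acetylation of lysine 27 on histone H3, marks active promoters and enhancers. SMARCB1 is a core subunit of the SWI/SNF complexes, which use ATP to move nucleosomes. Translation elongation runs on eEF1A, which brings aminoacyl-tRNA to the ribosome, the eEF1B exchange complex, which recharges eEF1A with GTP, and eEF2, which moves the ribosome along the message. Initiation uses eIF4F, in which the scaffold eIF4G holds the RNA helicase eIF4A and the cap-binding protein eIF4E. Messages of ribosomal proteins and of many elongation factors begin with a C and a run of pyrimidines, the 5' terminal oligopyrimidine (TOP) tract, through which their translation is regulated together by growth signals.

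Sequencing gave 10203310 tags for shSMARCB1 H3K27ac (55.1% within peaks) and 13235203 for shCon H3K27ac (53.8% within peaks), a tag ratio of 0.771. Peaks covered 70.9 Mb in shSMARCB1 and 79.5 Mb in shCon, a ratio of 0.892. The 4453 SMARCB1 peaks each carry a number of the authors' own, between 7.39 and 1217.4, of unstated unit, and the depth behind them is unknown. Of 10 hepatocyte marker genes, 4 in shSMARCB1 and 3 in shCon had H3K27ac in the gene or within 5 kb, and ALB, APOA1, APOB, TTR and HNF4A had none in either library. Of 7 endothelial markers, 4 in shSMARCB1 and 3 in shCon had it, and of 5 mesenchymal markers all 5 in each had it. The SMARCB1 library also held peaks on 5 of 7 basal keratinocyte markers, and its peaks spanned all of KRT5 and KRT17. KRT5 had 3695 bp of H3K27ac within 5 kb in shSMARCB1 and 0 bp in shCon, KRT17 had 1002 and 0 bp, and KRT14, under a SMARCB1 peak numbered 204.4, had 0 bp in both. Over that whole list 5 of 7 genes had H3K27ac in shSMARCB1 and 3 of 7 in shCon, with summed lengths of 49932 and 57476 bp. The files do not show how far SMARCB1 was depleted.

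The start sites of these genes are shown because H3K27ac covered every one of those listed here in both libraries. Their sequences also show which of the listed starts begin with a C and a pyrimidine run. The lines below give 50 bases before the RefSeq start site (GRCh38.p14) and 15 from it, 5' to 3' on the transcribed strand. Capitals mark a TATAA upstream and, at the start site, a C followed by at least 4 bases that are each C or T, with the whole pyrimidine run. Start sites of EEF1D are not shown.
EEF1A1, chr6:73521018-73521082, minus strand: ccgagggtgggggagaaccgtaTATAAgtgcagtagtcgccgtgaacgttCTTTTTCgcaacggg
EEF2, chr19:3985449-3985513, minus strand: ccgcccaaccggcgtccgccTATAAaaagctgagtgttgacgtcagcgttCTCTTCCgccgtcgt
TPT1, chr13:45341169-45341233, minus strand: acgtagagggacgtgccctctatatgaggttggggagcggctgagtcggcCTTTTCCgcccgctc
EEF1G, chr11:62573877-62573941, minus strand: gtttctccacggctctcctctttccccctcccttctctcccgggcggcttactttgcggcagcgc
EEF1B2, outer start, chr2:206159559-206159623, plus strand: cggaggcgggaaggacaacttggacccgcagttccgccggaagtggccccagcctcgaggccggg
EEF1B2, inner start, chr2:206159845-206159909, plus strand: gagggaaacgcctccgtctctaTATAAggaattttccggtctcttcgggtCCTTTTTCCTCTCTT
EIF4A1, chr17:7572775-7572839, plus strand: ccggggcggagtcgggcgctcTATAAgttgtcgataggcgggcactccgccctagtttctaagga
EIF4A2, chr3:186783527-186783591, plus strand: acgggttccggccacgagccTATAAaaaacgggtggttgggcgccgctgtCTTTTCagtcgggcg
EIF4G1, outer start, chr3:184314556-184314620, plus strand: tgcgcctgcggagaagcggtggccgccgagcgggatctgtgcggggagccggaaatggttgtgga
EIF4G2, outer start, chr11:10808912-10808976, minus strand: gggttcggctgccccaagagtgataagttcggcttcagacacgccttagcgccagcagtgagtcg

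The C with its pyrimidine run was present at a start site of EEF1A1, EEF2, TPT1, EEF1B2 and EIF4A2, 5 of the 9 genes with a listed start. It was present for 5.16% of all 27195 genes with a start in the same table, for 46 of 63 ribosomal protein genes and for 8 of 45 other translation factor genes. TATAA on the transcribed strand within 50 bases upstream was present for 5 of the 9, EEF1A1, EEF2, EEF1B2, EIF4A1 and EIF4A2, and for 5.96% of all genes. Both patterns were searched on the transcribed strand only, do not overlap each other, and were chosen after the sequences had been read. The inner EEF1B2 start carries both, while its outer start carries neither. The pyrimidine run was searched only at the exact listed start, so its absence there does not show that a gene lacks a TOP tract.

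SMARCB1 peaks lay inside these genes more than at their starts. A SMARCB1 peak overlapped the gene record of 9 of the 10, all but EEF1B2, against 15.8% of all protein-coding genes and 13.4% of the 6946 genes whose records are as long as these (3320 to 20753 bp). Among the 14192 coding genes with H3K27ac in both libraries the share was 21.3%. SMARCB1 covered at least 50% of the record in 1 of the 10, EEF2, against 0.222% of all coding genes and 0.259% of those as long as these. Since the genes were chosen with these peaks known, nothing is read from these differences. The 16 peaks covered 22351 of 102845 bp of gene record, or 21.7%, with 7888 bp of that in EEF2. The share was 0.152% over all coding gene records and 0.743% over those with a SMARCB1 peak. Those records are longer, with medians of 24482 and 37152 bp, against 8560.5 bp here. The centre of a peak lay a median of 3771 bp into the gene, over the 14 peaks on genes with a listed start. Of those 14, only the peak at the outer start of EIF4G2 reached the start site, or 7.14%, against 33.6% of all SMARCB1 peaks over a coding gene with a listed start. EEF1D has no listed start, so its peaks are not among the 14, although its promoter-TSS peak overlapped an end of its record.

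**Figure D1:**
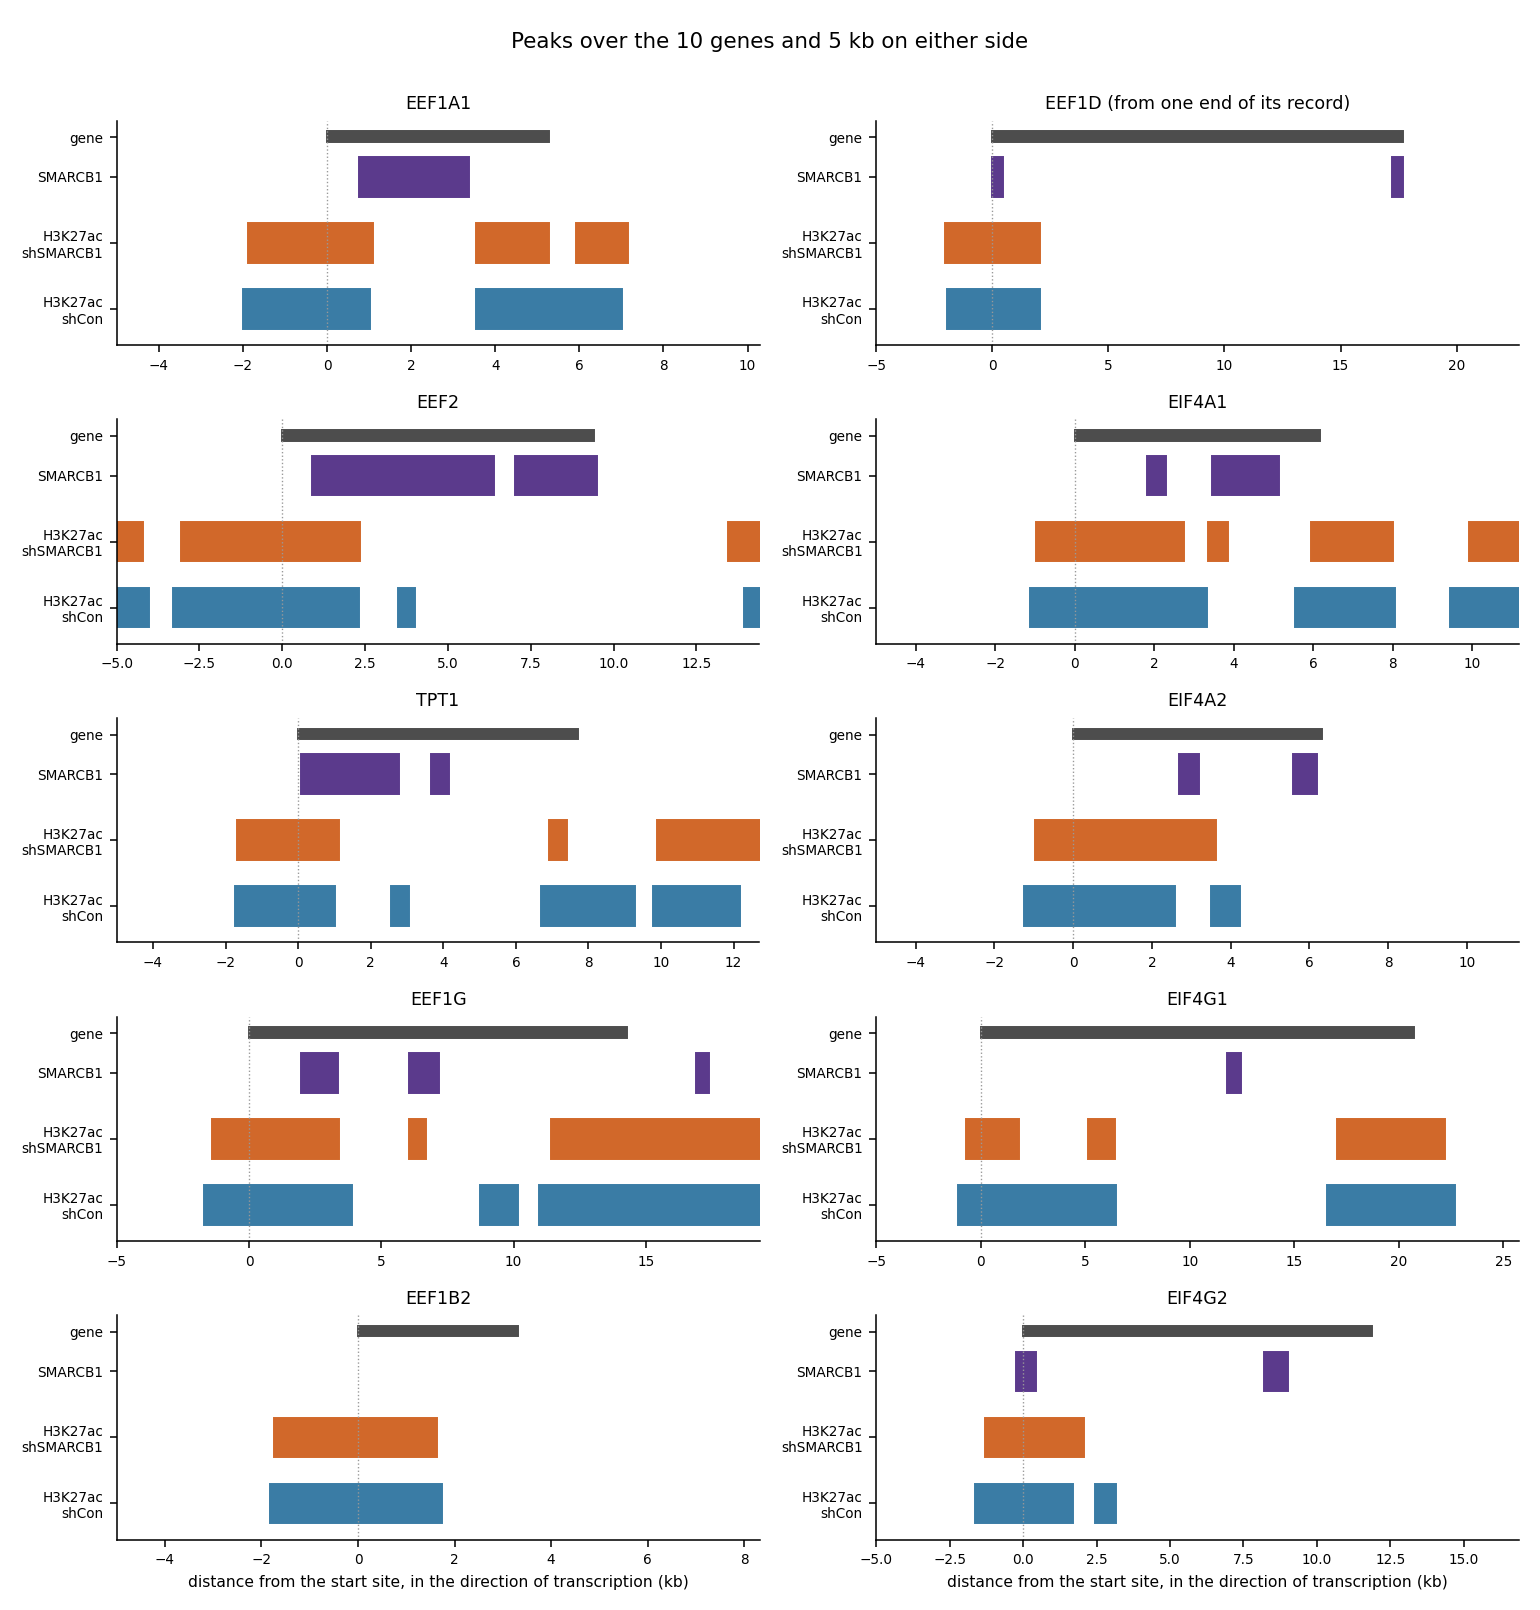
Each panel shows a gene record (grey) with 5 kb on either side, and below it the peaks of the SMARCB1, shSMARCB1 H3K27ac and shCon H3K27ac libraries, 1 library each. The horizontal axis is the distance in kb from the start site in the direction of transcription (for EEF1D, from the end of its record that holds the promoter-class peak), and the SMARCB1 peaks of EEF1A1 and EEF2 lie mostly outside the H3K27ac peaks.

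Among the elongation factors, EEF1A1 had the highest number and EEF2 the widest SMARCB1 cover. EEF1A1 encodes the eEF1A form of most tissues. Its only SMARCB1 peak, chr6:73517660-73520274, was 2615 bp wide, carried the number 789.6, rank 7 of 4453, and covered 49.5% of the gene record. It began 758 bp inside the gene. H3K27ac stood on either side of it, with 328 bp of the SMARCB1 peak under shSMARCB1 H3K27ac and 268 bp under shCon H3K27ac.

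EEF2 encodes the translocation factor. It had 2 SMARCB1 peaks, chr19:3979069-3984580 with the number 285.2 (rank 12) and chr19:3975971-3978431 with 225.5 (rank 14). Together they covered 83.8% of the gene record, from 883 bp inside the start to past the far end of the record. Of the first, 1465 bp lay under shSMARCB1 H3K27ac, all in the peak over the start site. In shCon it was 1946 bp, of which 1445 bp lay in the peak over the start site and 501 bp in a separate peak. The second overlapped none in either library.

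TPT1 encodes the translationally controlled tumour protein, which binds eEF1A and its exchange complex. Its wider SMARCB1 peak, chr13:45338409-45341094, had the number 231.9 (rank 13) and ended 89 bp short of the start site. A second peak of 500 bp had the number 61.8 (rank 53) and overlapped 51 of the 130 bp of the snoRNA gene SNORA31. Both together covered 41.3% of the record.

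The subunits of the exchange complex differed among themselves. EEF1G, its structural gamma subunit, had peaks numbered 48.6 (rank 73) and 37.5 (rank 133) over 17.6% of its record. EEF1D, the delta exchange subunit, had peaks at either end of its record, numbered 12.1 and 11.1 and 500 bp wide each. EEF1B2, the beta subunit that catalyses exchange, had no SMARCB1 peak in its record or within 5 kb, although its start was acetylated in both libraries. In the order of their highest numbers the genes of elongation and TPT1 thus ran from 789.6 at EEF1A1 to no peak at EEF1B2.

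Among the initiation factors only EIF4A1, which encodes the main eIF4A helicase, had a peak among the 100 highest numbers. That peak, chr17:7576271-7577957, was 1687 bp wide, had the number 51.2 (rank 67) and covered the snoRNA gene SNORD10. EIF4A1 was covered over 35.4% of its record. EIF4A2, its close paralogue, had numbers of 16.4 (rank 936) and 8.45 (rank 4285) and 17.8% cover. EIF4G1, the scaffold of eIF4F, had a single peak of 635 bp with the number 12.1, over 3.06% of its record. EIF4G2, a relative of eIF4G that does not bind eIF4E and takes part in cap-independent initiation, had numbers of 21.1 (rank 488) and 12.1 over 10.5%. Over both groups, 7 of the 16 peaks were among the 100 highest numbers, against 2.27% of the whole list, where a tie brings the count to 101. Such a peak lay on 5 of the 10 genes, against 0.464% of all 19821 coding genes. The genes with the pyrimidine run at a listed start held the 3 highest values. They also included EEF1B2, with no peak, and EIF4A2, with 16.4, so the numbers did not follow the run gene by gene. EEF1A1, TPT1 and both EIF4A genes have close copies elsewhere in the genome, and the sources used here do not say how reads shared with such copies were placed.

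**Figure D2:**
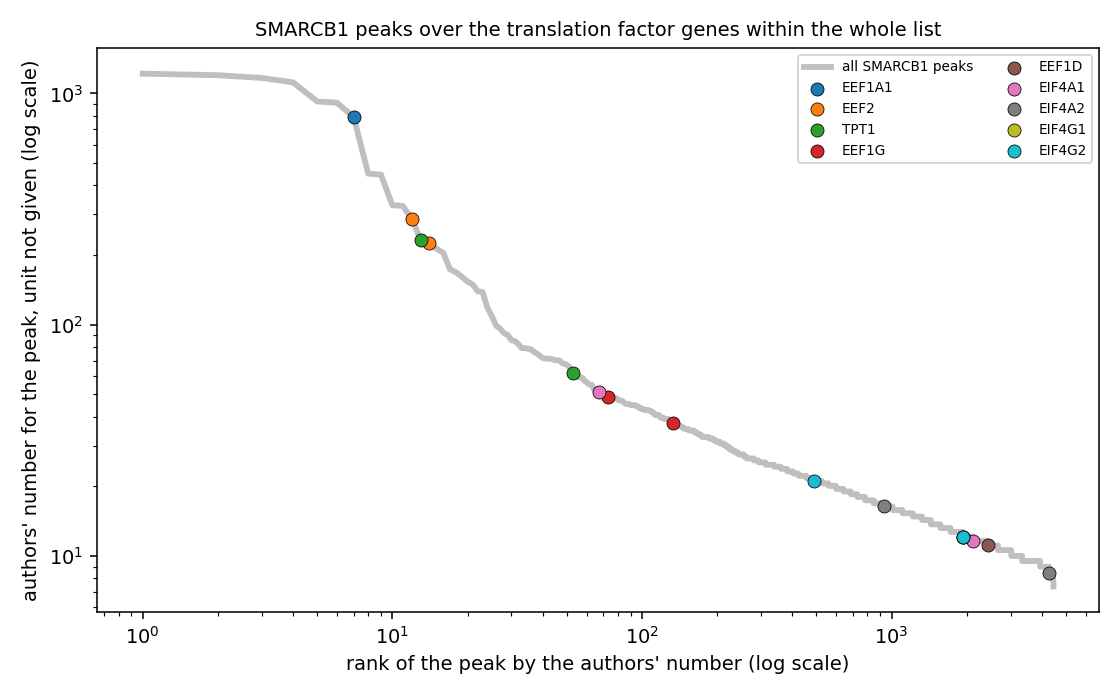
The authors' number of every SMARCB1 peak (grey line, log scale, unit not given) is plotted against its rank among 4453 peaks (log scale), with the 16 peaks over these genes as coloured points. Points of EEF1A1, EEF2 and TPT1 stand at ranks 7 to 53, and those of EEF1D and EIF4G1 at rank 1934 and beyond.

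The SMARCB1 peak at the outer start of EIF4G2, chr11:10808500-10809152, with the number 12.1, was the only one over a listed start site, and it lay wholly within H3K27ac in both libraries. The 250 bases before that start (RefSeq, GRCh38.p14, chr11:10808927-10809176, minus strand, 66% G or C) are given 5' to 3', with capitals for CCAAT, searched on both strands, whose 2 matches here read ATTGG.
EIF4G2 promoter: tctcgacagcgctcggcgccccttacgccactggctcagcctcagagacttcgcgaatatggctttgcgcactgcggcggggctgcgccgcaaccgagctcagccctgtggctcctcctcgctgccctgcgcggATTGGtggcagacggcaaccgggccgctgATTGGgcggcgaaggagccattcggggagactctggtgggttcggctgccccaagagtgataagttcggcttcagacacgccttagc
CCAAT on either strand was present in the 300-base windows (250 before the start and 50 from it) of 5 of the 9 genes, against 39.7% of all genes. The SMARCB1 peak ended within the promoter bases shown.

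The authors' position classes put 6 of the 16 peaks at a promoter-TSS, 5 at a TTS, the end of a transcript, 4 in introns and 1 in an exon. In shares, promoter-TSS made up 37.5% of the 16 and 29.2% of the whole list, introns 25.0% and 29.4%, and exons 6.25% and 10.3%. TTS made up 31.2% of the 16 and 2.6% of the whole list. The TTS peaks of EIF4A1, EEF2, TPT1 and EIF4G1 were centred at 33.3%, 38.7%, 50.6% and 58.4% of the gene from its start. Only that of EIF4A2, at 93.1%, was centred near the far end of its gene. The class thus did not place most of these peaks at the ends of these genes. Those of EIF4A1, EEF2 and TPT1 overlapped a small RNA gene inside the host. Several classes did not match the distance to the start of the gene: the promoter-TSS peaks of EEF1G, EIF4A1 and EIF4A2 were centred 6633, 4289 and 2938 bp inside the gene. Each of these covered a whole small RNA gene within the host, MIR6747 in EEF1G, SNORD10 in EIF4A1 and SNORA63B in EIF4A2. The EIF4A2 peak also overlapped 94 of 106 bp of MIR1248 and 90 of 177 bp of SNORA81, and the EIF4A1 peak only 3 of 137 bp of SNORA67. In all, 6 of the 16 peaks (37.5%) overlapped a small RNA gene by at least 1 base, against 1.39% of the whole list. Small RNA genes lie in 8 of the 10 records, while the whole list was not limited to peaks in such host genes. The promoter-TSS peak of EEF1A1 was centred 2065 bp inside its gene, with no small RNA gene in the record.

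H3K27ac was present at all 10 genes in both libraries, in the gene or within 5 kb, against 72.8% of all coding genes in shSMARCB1, 73.8% in shCon and 71.6% in both. It was in shSMARCB1 only at 0 of the 10, against 1.16% of all coding genes, and in shCon only at 0, against 2.2%. Its length was lower in shSMARCB1 at 8 of the 10 and higher at 2. Over all coding genes 56.4% were lower and 18.3% higher, and the shares were 75.7% and 23.9% among the 14192 coding genes with H3K27ac in both libraries, so the share of shorter genes was close to that of all genes. The summed length was 64554 bp in shSMARCB1 and 76339 bp in shCon, a ratio of 0.846, and over those 14192 genes the ratio was 0.887. The ratio per gene had a median of 0.892 over the 10 and of 0.891 over the 14192. Much of the lower sum came from EIF4G1, and without it the ratio was 0.887. The shSMARCB1 library was the shallower one, both lists were called against the same input, and the part of depth in these lengths was not tested. Peak length also does not separate fewer acetylated cells from weaker acetylation per cell.

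**Figure D3:**
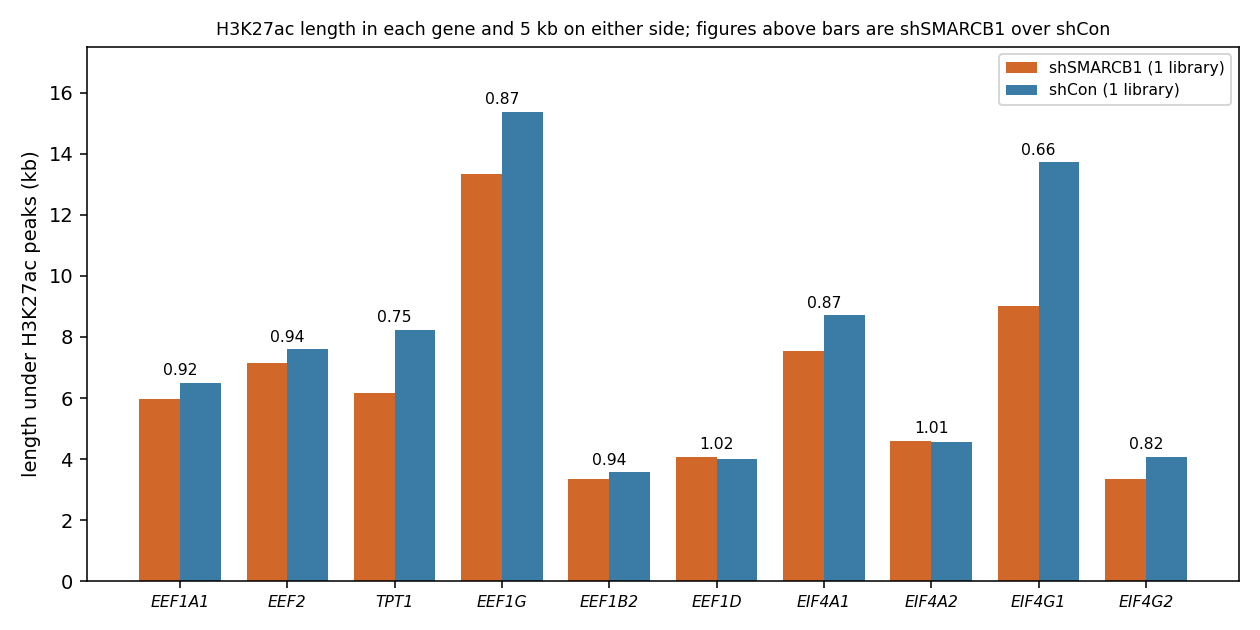
Bars give the length under H3K27ac peaks (kb) in each gene and 5 kb on either side, in shSMARCB1 and then shCon, 1 library each, and the values printed over the bars the ratio of shSMARCB1 to shCon. EIF4G1 has the lowest ratio, 0.66, and EEF1D the highest, 1.02.

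Most elongation genes differed little in H3K27ac length. EEF1A1 had 5960 bp in shSMARCB1 and 6508 bp in shCon, and within the gene record alone it had more in shSMARCB1, 2833 against 2770 bp. EEF2 had 7159 bp in shSMARCB1 and 7592 bp in shCon, EEF1B2 had 3366 and 3566 bp, and EEF1D had 4073 and 3992 bp, so the ratios of these genes lay between 0.916 and 1.02. At EEF1B2 all H3K27ac of shSMARCB1 lay inside that of shCon, as a single peak shared with the start of NDUFS1.

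TPT1 and EEF1G had less H3K27ac length in shSMARCB1, in part toward their far ends. TPT1 had 6157 bp in shSMARCB1 and 8233 bp in shCon, a ratio of 0.748. The peak at the far end of its record was 501 bp wide in shSMARCB1 and 2597 bp in shCon, while the next peak beyond the record was wider in shSMARCB1, 3618 bp, than in shCon, 2376 bp. That shSMARCB1 peak shared 2997 bp with shCon, since it also ran over another shCon peak, of 1064 bp, 5074 bp from TPT1. EEF1G had 13337 bp in shSMARCB1 and 15376 bp in shCon, a ratio of 0.867, and a shCon peak of 1415 bp toward the far end of the gene had no counterpart in shSMARCB1.

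Of the initiation genes, EIF4G1 differed most. It had 9008 bp in shSMARCB1 and 13711 bp in shCon, a ratio of 0.657, which lies between the 5% point (0.591) and the 25% point (0.787) of the 14192 genes. In shCon a single peak of 7572 bp ran from 1082 bp upstream of the outer start to 6489 bp inside the gene, while in shSMARCB1 the same stretch held peaks of 2515 and 1291 bp with a gap between them. All H3K27ac of shSMARCB1 at EIF4G1 lay within that of shCon, and its SMARCB1 peak lay outside H3K27ac in both. EIF4A1 had 7543 bp in shSMARCB1 and 8712 bp in shCon, EIF4G2 had 3352 and 4087 bp, and EIF4A2 had 4599 and 4562 bp. The direction was not stable at EEF1A1, EEF2, EEF1D and EIF4A2: at EIF4A2, for example, the difference was -883 bp when peaks closer than 1 kb were merged. At EIF4G2 the difference of -735 bp was -12 bp with only peaks of at least 1000 bp or the wider 50% of each list, and at EIF4A1 the difference of -1169 bp ranged from -473 bp in the record alone to -2584 bp within 10 kb. Part of the EIF4A1 length belonged to peaks over its neighbours SENP3, CD68 and MPDU1. Counted peaks also lay over FAM131A at EIF4G1 (5202 bp in shSMARCB1 and 6139 bp in shCon), TUT1 at EEF1G and DAPK3 at EEF2. The only H3K27ac peak of EEF1D in each library lay over TIGD5 as well. The 5 kb limit fell between the DAPK3 peak of 4418 bp in shCon, 4532 bp from EEF2 and counted where within 5 kb, and another shCon peak. That peak, of 1064 bp, was 5074 bp from TPT1 and not counted.

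The H3K27ac peak over the start site reached less far upstream in shSMARCB1 at all 9 genes with a listed start, against 72% of 9152 coding genes whose start was acetylated in both. The differences, shSMARCB1 minus shCon, ran from -60 bp at TPT1 to -389 bp at EIF4G1. Into the gene it reached less far at 4 of the 9, EEF1G, EEF1B2, EIF4A1 and EIF4G1, against 71.3% of the 9152, and farther at EEF1A1, EEF2, TPT1, EIF4A2 and EIF4G2. The reach into EEF1A1 was 1085 bp in shSMARCB1 and 1025 bp in shCon, that into EEF2 2347 and 2327 bp, that into TPT1 1130 and 1011 bp, and that into EIF4G2 2065 and 1715 bp. The difference in reach was larger at EIF4A2, 3638 bp in shSMARCB1 and 2582 bp in shCon. These values describe the start-site peak alone. At EIF4G2 a separate shCon peak of 723 bp lay farther inside the gene, with no counterpart in shSMARCB1. The whole EIF4G2 record had 2066 bp of H3K27ac in shSMARCB1 and 2439 bp in shCon. Separate shCon peaks inside EEF2, TPT1 and EIF4A2 are given below. All 9 upstream differences and the differences into EEF1A1, EEF2, TPT1, EEF1B2 and EIF4G2 were smaller than the 500 bp peak size of the caller. The fragment length given for the libraries differed too, at 158 bp in shSMARCB1 and 190 bp in shCon, and its part in the reach was not tested. The whole start-site peak was narrower in shSMARCB1 at 7 of the 9, against 77.5% of the 9152.

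**Figure D4:**
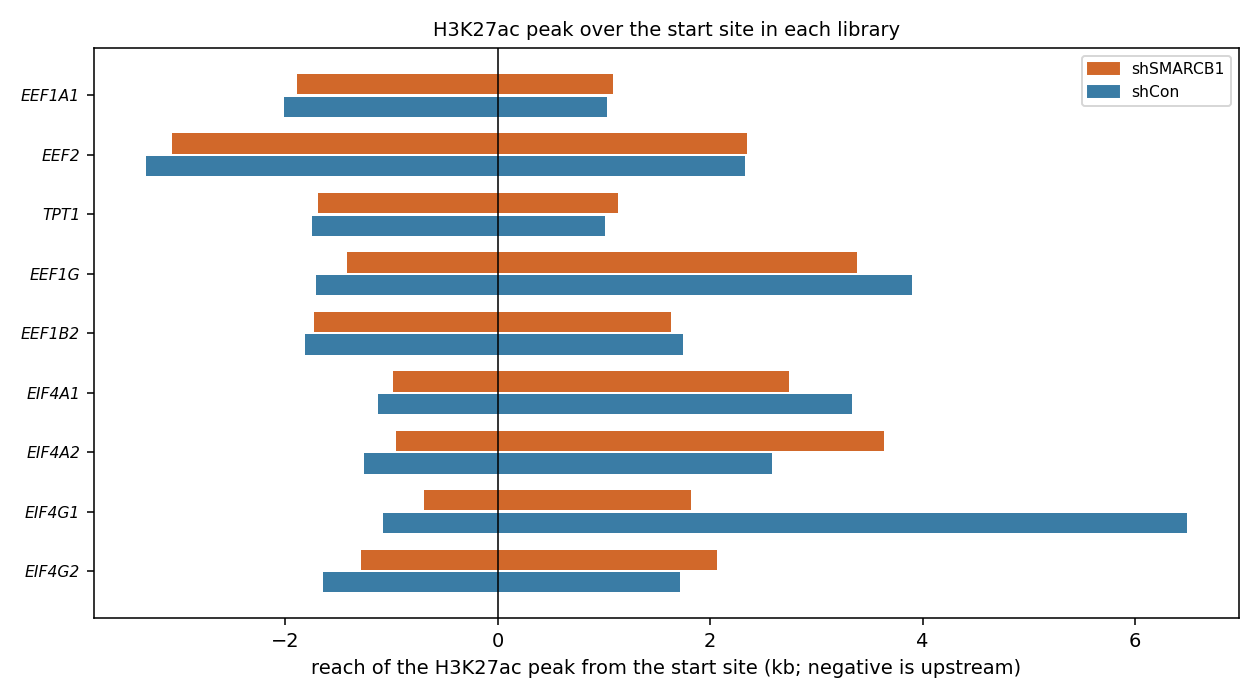
For 9 genes, bars give the reach (kb) of the H3K27ac peak over the start site, upstream to the left and into the gene to the right, in shSMARCB1 above shCon, 1 library each. Every upstream bar is shorter in shSMARCB1, while the reach into the gene is longer in shSMARCB1 at 5 genes and is 1821 bp in shSMARCB1 at EIF4G1, against 6489 bp in shCon.

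Acetylation and SMARCB1 were compared peak by peak inside the genes. Of the 16 SMARCB1 peaks, 10 overlapped shSMARCB1 H3K27ac and 7 overlapped shCon H3K27ac, against 69% and 70.6% of the whole list. The other 6 of the 16 (37.5%) overlapped neither, against 28.3% of the list. Among the 10, those at EEF1G, EIF4A1 and EIF4A2, 3 peaks, overlapped shSMARCB1 H3K27ac only, or 18.8%, against 1.15% of the list, and 0 of the 16 overlapped shCon H3K27ac only, against 2.72%.

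Those 3 are the promoter-TSS peaks with a whole small RNA gene described above. In EEF1G a shSMARCB1 peak of 657 bp lay at chr11:62567182-62567838, with 645 bp of it on the SMARCB1 peak, and shCon had none there. In EIF4A1 a shSMARCB1 peak of 501 bp, chr17:7576181-7576681, shared 411 bp with the SMARCB1 peak, and the shCon peak over the start, chr17:7571696-7576157, stopped short of both. In EIF4A2 the start-site peak of shSMARCB1 ran on over the whole 500 bp SMARCB1 peak, where shCon had a gap between peaks of 3837 and 725 bp. The opposite also occurred at wider SMARCB1 peaks: EEF2 and TPT1 each had a shCon peak of 501 bp, chr19:3981456-3981956 and chr13:45338123-45338623, with no counterpart in shSMARCB1. The EEF2 one lay wholly inside the SMARCB1 peak, while the TPT1 one overlapped its edge by 215 bp. Most of these peaks are close to the 500 bp peak size of the caller. KRT5 and KRT17 likewise had H3K27ac in shSMARCB1 only, under SMARCB1 peaks, and the part of that keratin signal in the translation factor values was not tested.

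SMARCB1 and H3K27ac were distributed differently along the genes, each divided into 10 equal segments from the start. In the first segment H3K27ac covered a mean of 98.6% of bases in shSMARCB1 and 100.0% in shCon over 9 genes, and SMARCB1 peaks covered 14.5%. In the fifth segment H3K27ac covered 31.4% in shSMARCB1 and 26.1% in shCon, and SMARCB1 peaks covered 41.9%. The fifth and sixth segments were the only ones with more H3K27ac in shSMARCB1. In the third, H3K27ac covered 49.5% in shSMARCB1 and 64.6% in shCon, and in the seventh 6.08% and 20.8%. Of all SMARCB1-covered bases in the 10 records, 32.1% lay under shSMARCB1 H3K27ac and 27.5% under shCon H3K27ac, against 64.5% and 65.9% over all coding genes. Over the 2559 coding genes with a SMARCB1 peak and a listed start, SMARCB1 cover was highest in the first segment, at 13.1%, and was 3.04% in the fifth. Over 63 ribosomal protein genes it was, as in the translation factor genes, lower in the first segment, at 15.1%, than in the fifth, at 23.2%. Its highest value there, 24.0%, was in the ninth. Segments scale with gene length, and the median record was 8560.5 bp over the 10 genes and 37152 bp over all coding genes with a SMARCB1 peak. The contrast with the 2559 genes is thus one of relative position, and distances in bp from the start were not compared by segment.

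**Figure D5:**
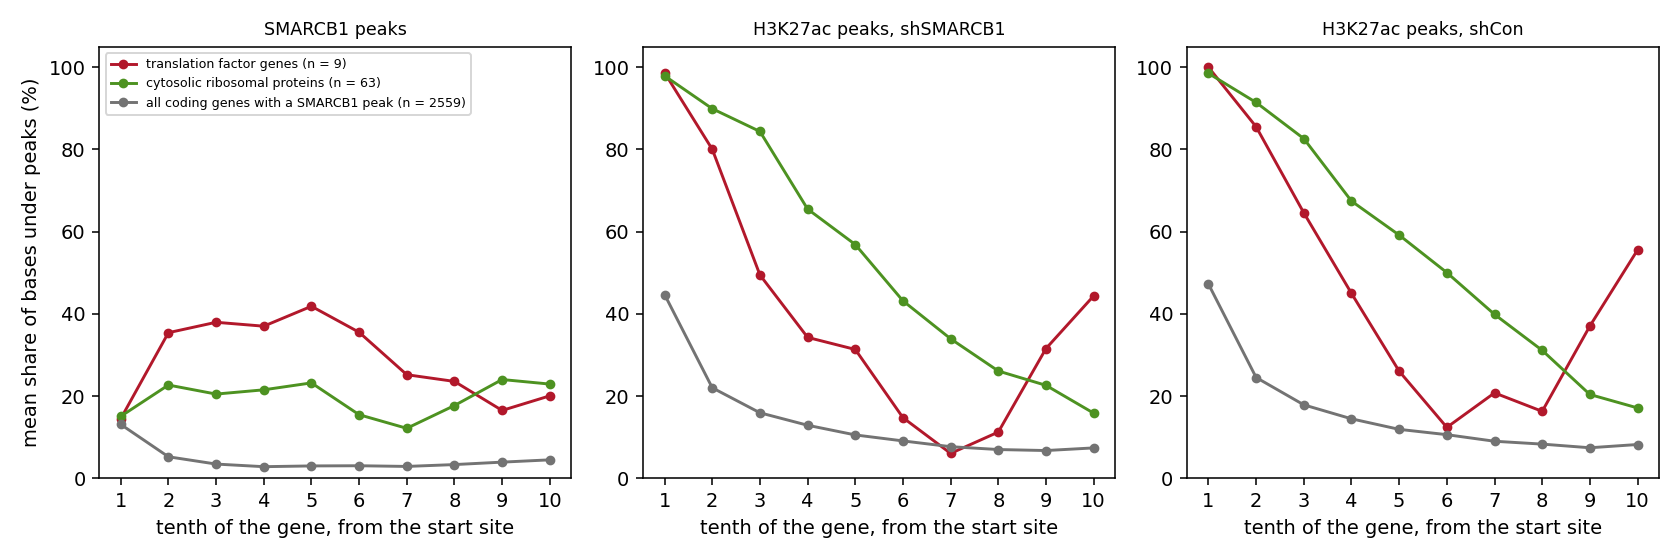
Each panel plots, for a library, the mean share of bases under peaks (%) in each of 10 equal segments of the gene from the start site, for the translation factor genes (n = 9), cytosolic ribosomal protein genes (n = 63) and all coding genes with a SMARCB1 peak (n = 2559). In the translation factor genes SMARCB1 cover peaks at 41.9% in the fifth segment, whereas in all coding genes with a peak it is highest in the first. Segments are shares of gene length, and coding genes with a peak have longer records (median 37152 bp, against 8560.5 bp), so the same segment spans more bp there.

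On the other translation factor genes SMARCB1 peaks were not more frequent than on all coding genes. Of 56 other initiation, elongation, release and related factor genes, 6 had a SMARCB1 peak over the record. That is 10.7%, against 15.8% of all protein-coding genes and 21.3% of the 14192 with H3K27ac in both libraries. None of these peaks was among the 100 highest numbers, against 0.464% of all coding genes with such a peak. The 6 genes were PABPC1, the poly(A)-binding protein gene, with 24.8, EIF2B4 with 19.5, EIF4B, a cofactor of eIF4A, with 15.3, EIF2B2 with 13.2, EIF5 with 12.7 and EIF6 with 8.98. EEF1A2, the form of eEF1A found in muscle and neurons, and EIF4E, the cap-binding protein gene, had none. EEF1A2 had 1701 bp of H3K27ac in shSMARCB1 and 1869 bp in shCon, and EIF4E had 4466 and 6867 bp. Of the 56, 55 had H3K27ac in both libraries, against 71.6% of all coding genes, and 0 in a single library.

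Cytosolic ribosomal protein genes were closer to the factors described here, with SMARCB1 peaks on 58 of 79 and 21 of 79 among the 100 highest numbers. Over all coding genes these shares were 15.8% and 0.464%. RPL4 and RPLP0 had numbers of 99.3 and 96.1 over 54.1% and 52.5% of their records. RPS29 had 1166.7, over 2.25% of its record. The ratio of summed H3K27ac length was 0.916 for the ribosomal protein genes and 0.867 for the 56 factors. By the measure fixed for likeness, SMARCB1 peaks over at least 50% of the record and H3K27ac in both libraries, EEF2 alone of the 10 had the pattern, EEF1A1 lying just below at 49.5%, and 39 other coding genes had it. The pattern was thus found in 0.282% of the coding genes with H3K27ac in both. The highest numbers among those 39 belonged to ACTB (328.5), GAPDH (326.9), ACTG1 (213.4), TUBB (173.8), HSPA8 (168.5) and S100A6 (161.1), which encode actins, a glycolytic enzyme, a tubulin, a chaperone and a calcium-binding protein, and 10 of the 39 were ribosomal protein genes.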

How the data were processed

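ChIP-seq peak lists of SK-Hep1 cells were used: SMARCB1, H3K27ac with an shRNA against SMARCB1 and H3K27ac with a control shRNA, 1 library each. An input library is labelled and was not analysed here. The submitters' processing notes name hg38 as the build, with Bowtie2 and HOMER as tools. Per the file headers, H3K27ac peaks were called in HOMER's histone style, each library alone and both against the control input, with 500 bp peaks, 1000 bp minimum distance and 4-fold signal over input and local region, then stitched. The deposited score of every H3K27ac peak is 1, so only length was used. The SMARCB1 list as deposited has a number and a position class per peak, while the sources used here do not state its caller settings.

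Only peaks of the autosomes and X entered (3 left out of each H3K27ac list). Overlap meant at least 1 base, and positions are 1-based. Gene records and start sites came from RefSeq (GRCh38.p14, the same primary assembly as hg38). A gene had H3K27ac if a peak lay in its record or within 5 kb. The start site is the outer end of the record. Interval code was tested on simulated data. The members and lists were chosen with earlier results of these data known. Named were all 10 members. Of the other factors, EEF1A2, EIF4E, PABPC1, up to 6 by highest number and up to 4 per direction with H3K27ac in 1 library were named, and 3 ribosomal protein genes, 6 genes of the likeness pattern and small RNA genes under peaks. Python 3.11.15, NumPy 2.4.6, pandas 2.3.3 and matplotlib 3.10.9 were used.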

Additional observations from a re-analysis of the deposited data

How the results depend on the processing

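No paired analysis was possible because each group had 1 library. The count of genes with a SMARCB1 peak was 9 under every alternative run except the 1000 highest numbers, where it was 7. The count with H3K27ac was 10 in each library throughout. Genes with less H3K27ac length in shSMARCB1 were 7 in the gene records alone and with the wider 50% of each list. They were 9 within 10 kb and 8 otherwise. The share of the gene records under SMARCB1 peaks was 20.8% with numbers from the list's median up and 18.8% with the 1000 highest. The ratio of summed H3K27ac length, shSMARCB1 over shCon, stayed below 1: 0.817 in the gene records alone, 0.830 within 1 kb, 0.833 within 10 kb, 0.840 with peaks of at least 1000 bp, 0.833 with the wider 50% of each list, 0.817 with peaks closer than 1 kb merged, and 0.887 without EIF4G1, an alternative chosen after seeing the data. Of 60 recomputed differences per gene (shSMARCB1 minus shCon), 5 turned: EEF1A1 to 63 bp in the record alone and 81 bp with merging, EEF1D to -420 bp within 10 kb, EEF2 to 259 bp with the wider 50%, and EIF4A2 to -883 bp with merging. Among those that kept their sign, EIF4G2 ran from -12 to -1453 bp and EIF4A1 from -473 to -2584 bp. In each case the cause was not tested. The lower depth of shSMARCB1 limits what its list can show of weak peaks.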

Other observations

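The records of 8 of the 10 genes hold small RNA genes, 17 in all, of which 9 shared at least 1 base with a SMARCB1 peak and 5 lay wholly under one. SMARCB1 peaks covered 21.7% of the 10 records, and a preference for small RNA genes within them was not tested. The 5 wholly covered were SNORD37 in EEF2, MIR6747 in EEF1G, SNORA48 and SNORD10 in EIF4A1 and SNORA63B in EIF4A2. SNORA31, MIR1248, SNORA81 and SNORA67 were covered in part, SNORA67 over 3 of 137 bp. In EIF4A2, SNORD2, SNORA63 and SNORA4 shared no base with a SMARCB1 peak. The peak of EIF4G1 lay 632 bp from SNORD66 and the inner peak of EIF4G2 752 bp from SNORD97, while SNORD51 and SNORA41 in EEF1B2, the gene without a SMARCB1 peak, had none within 5 kb of their host.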
